A study of Mus musculus with 8 samples.

Results

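Heat shock proteins and the chaperones that work with them were followed in normal and dystrophic mice, in the diaphragm, the muscle that drives breathing. The genes were taken from a fixed list of 37 names: small heat shock proteins, HSP70, HSP110, HSP90, HSP60 with HSP10, HSP40 (J proteins), co-chaperones, heat shock factors and subunits of the CCT chaperonin. Of the 37, 34 had a probe set of that gene alone, out of 12393 genes with such a probe set. Hsp90ab1, Hspb6 and Hsf1 were not analysed here. The 34 genes had 79 probe sets, and 33 genes and 70 probe sets were bright enough to test. All mice were 8 weeks old. The normal group consisted of mice labelled normal, and the dystrophic group of dy/dy mice, which carry a laminin-deficient muscular dystrophy. Each group had 4 Affymetrix arrays and each array a pool of muscle from 3 mice, so 12 mice stood behind each group and the spread between single mice was not measured. No strain, sex or treatment is given in the sources used here.

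Chaperones bind proteins that have not folded or have lost their fold. Small heat shock proteins hold such clients in solution without using ATP, HSP70 machines bind and release them in ATP cycles that J proteins start and HSP110 proteins and other exchange factors finish, and HSP90, HSP60 and CCT fold later or particular clients. In muscle, crystallin αB and its relatives sit at the Z-disc and on intermediate filaments, and BAG3 with HSPB8 and HSP70 sends damaged filamin to autophagy. Heat shock factor 1 switches on Hspa1a, Hspa1b, Dnajb1, Hsph1, Hsp90aa1 and Hspb1 when unfolded protein builds up, whereas Hspa8, Hspa9 and the CCT genes are transcribed in unstressed cells.

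The values are MAS5 signals, which have no unit and which are set here to a common level on every array. Log2 differences are dystrophic minus normal, on the scale log2(signal + 16), given with the standard error, and tests are two-sided limma fits with Benjamini-Hochberg adjustment over 13575 probe sets. Signals in parentheses of the form mean ± SD cover the 4 arrays of a group. With 4 arrays against 4, the exact permutation test cannot give a p below 0.0286. Probes differ in brightness, so signals of different probe sets were not compared as levels, and brightness served only to choose which probe sets and genes to show.

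Lama2 encodes the laminin chain in which dy/dy muscle is deficient. Its signals were 793, 982, 859 and 749 in normal arrays and 333, 239.7, 275 and 232 in dystrophic arrays. The log2 difference was -1.60 (SE 0.152, adjusted p = 0.000891), so the libraries matched their labels. All 9 skeletal muscle fibre markers were well detected, with summed signals of 146700 to 222100 in normal and 145600 to 164300 in dystrophic arrays and 0 of 9 called. Called means an adjusted limma p under 0.05, as for 67 of all 13575 probe sets (0.494%). Summed markers were higher in every dystrophic than in every normal array for macrophages (6607 to 9682 against 12090 to 14200, 3 of 10 markers called), fibroblasts (25560 to 30480 against 36520 to 46220, 2 of 6 called) and regenerating fibres (548 to 771 against 3013 to 4943, 5 of 5 called). The sum of the 5 endothelial markers went the other way, at 4182 to 4609 in normal and 2999 to 4116 in dystrophic arrays. Of these markers 4 of 5 lay below 0 (median -0.28), Pecam1 lay above it at 0.12, and 0 were called. No marker was listed at 0. The 7 liver markers summed to 55339 in dystrophic replicate 3, against 1721 to 6311 in the other dystrophic arrays, 3568 in normal replicate 2 and 1178 to 1373 in the other normal arrays. Spike-in controls added before labelling had geometric mean signals of 543 and 588 in replicate 1 of either group, 354 and 307 in replicate 3, and 125 to 172 in replicates 2 and 4. Below, arrays of like spike-in level are also compared with each other.

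None of the 33 tested chaperone genes was called at an adjusted p under 0.05, where 67 of all 13575 probe sets (0.494%) were, 62 of them higher and 5 lower in dystrophic muscle. Each gene is represented by its brightest probe set, and the smallest adjusted p was 0.309, for the small heat shock protein gene Hspb3. A dimmer Hspa4 probe set, described below, had a smaller adjusted limma p of 0.125, and 0 of the 70 tested chaperone probe sets were called. Differences leaned one way: 26 of 33 genes lay below 0 and 7 above, or 78.8% below against 52.3% of all probe sets, with a median of -0.14 against -0.01. At an unadjusted limma p under 0.05, 3 genes were lower (Hspb3, Hspd1 and Hspa8), 9.09% against a background of 4.13% of all probe sets, and 0 were higher, against a background of 5.6%. Groups that did not overlap were found for 1 gene in the lower direction (Hspb3), 3.03% against 2.53% of all, and for 0 in the higher direction, against 3.87%. The 95% interval of the difference lay within 2-fold either way for 28 of the 33 genes and within 1.5-fold for 17. A difference that misses the threshold does not show that levels were alike, since the number of arrays limits the precision.

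**Figure D1:**
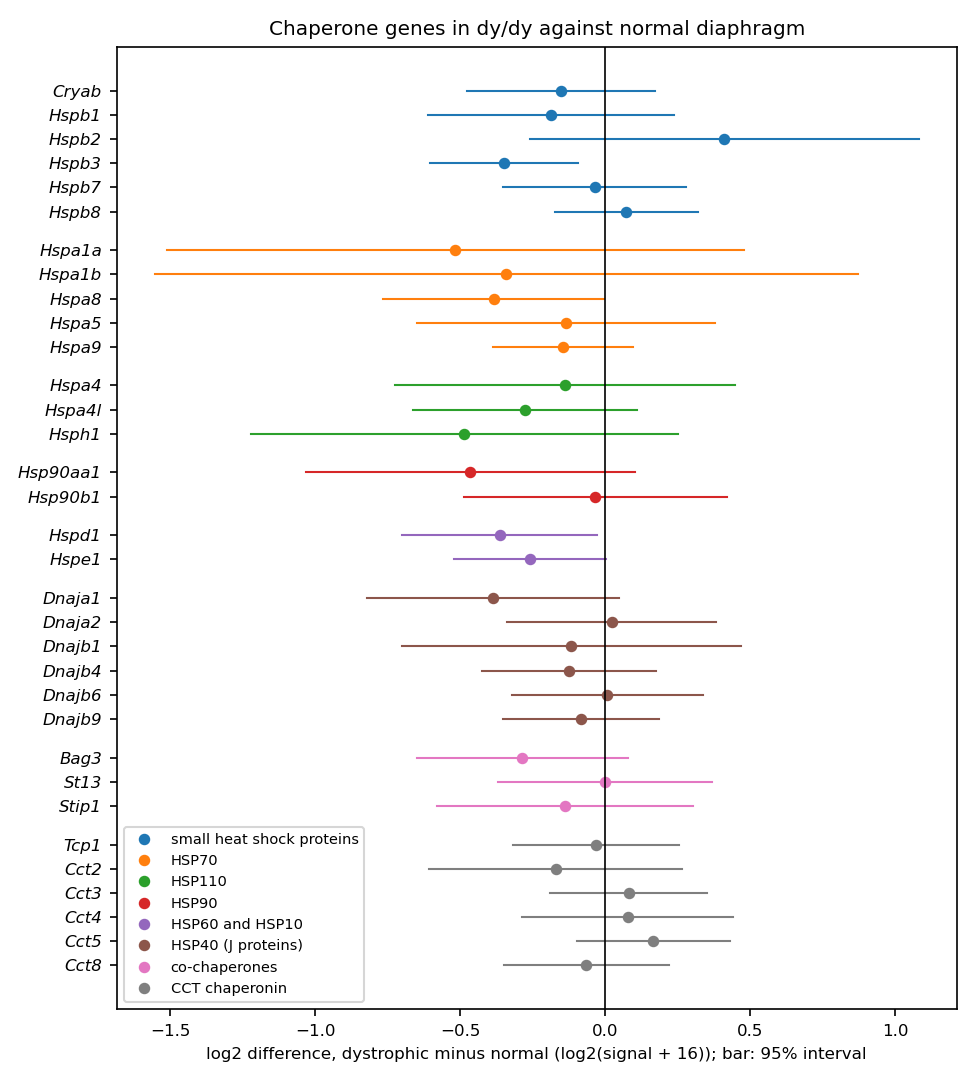
Log2 difference (dystrophic minus normal, on log2(signal + 16)) of each of the 33 tested chaperone genes, grouped by family, with bars for the 95% interval of the limma fit over 8 arrays. Most points lie left of 0, the widest bars are those of Hspa1a and Hspa1b, and the bars of Hspb3, Hspd1 and Hspa8 end below 0.

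The lean to lower values was not even across arrays. Without normal replicate 2 it came to 21 of 33 genes below 0 and a median of -0.08, and without normal replicate 4 and dystrophic replicate 3 together to 23 genes and -0.07. On the values as deposited, with normal replicate 4 scaled lower, 21 genes lay below 0, since Hspb7, Hsp90b1, St13, Tcp1 and Cct8 then lay above it, and the median was -0.06 against 0.06 for all probe sets. In the main fit these medians were -0.14 and -0.01, so most of that move was shared by all probe sets. Between the replicate 1 arrays, which had the highest spike-in level, 13 of 33 genes lay below 0 with a median of 0.04, whereas between the replicate 3 arrays 25 did with a median of -0.15, and between replicates 2 and 4 of each group 23 did with a median of -0.24. The medians over all tested probe sets in those comparisons were 0.00, -0.03 and -0.01. In bulk muscle, fewer fibres and less RNA per fibre cannot be told apart. The muscle fibre markers named above had a median difference of -0.21, with 7 of 9 below 0. The part of these and of the endothelial markers in the chaperone differences was not tested.

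Several small heat shock proteins are made mainly in muscle. Of 6 tested genes 4 lay below 0 and 2 above, with a family median of -0.09, and 0 were called. Hspb3 encodes a muscle-restricted small heat shock protein that pairs with HSPB2. Its signals were 1152, 1171, 1209 and 1382 in normal arrays and 1020.3, 947, 949 and 923 in dystrophic arrays. Every dystrophic array lay below every normal array (1229 ± 105 against 959.6 ± 42.1), and the highest dystrophic value was that of replicate 1. The log2 difference was -0.35 (SE 0.116, unadjusted limma p = 0.0116, adjusted p = 0.309; exact permutation p = 0.0286, the smallest it can give). It was -0.17 between the replicate 1 arrays, -0.35 between the replicate 3 arrays and -0.44 between replicates 2 and 4.

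Hspb2, the partner of HSPB3, had signals of 3430, 2071, 2849 and 1026 in normal arrays and 3554, 2464, 2555 and 2932 in dystrophic arrays. The groups overlapped, and normal replicate 4 alone lay below all others. The difference of 0.41 (SE 0.306, adjusted p = 0.726) became 0.06 when that array was left out. Hspb1 (HSP27), which caps actin filaments, was the brightest gene of the family, with 17010, 12195, 12736 and 18966 in normal arrays and 18414, 10926, 11943 and 12431 in dystrophic arrays. Replicate 1 was high in both groups, and the groups overlapped over most of their range, with a difference of -0.19 (SE 0.194, adjusted p = 0.822).

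Cryab, crystallin αB, the desmin-binding chaperone of the Z-disc, had signals of 10260, 8716, 10196 and 10859 in normal arrays and 11109, 7142, 9515 and 8584 in dystrophic arrays. The highest and the lowest value of all 8 arrays were both dystrophic, and the difference was -0.15 (SE 0.148, adjusted p = 0.804). A second bright Cryab probe set gave -0.19. Hspb8, which works with BAG3, ranged from 3049 to 3404 in normal and from 3111 to 3718 in dystrophic arrays, with a difference of 0.07 (SE 0.112). Its other tested probe sets gave 0.24 and 0.24, and none of the 3 was called. Hspb7, the cardiovascular small heat shock protein that binds filamin, gave -0.04 (SE 0.144) on its brightest probe set and 0.21 and 0.23 on the others, so its direction depends on the probe set.

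**Figure D2:**
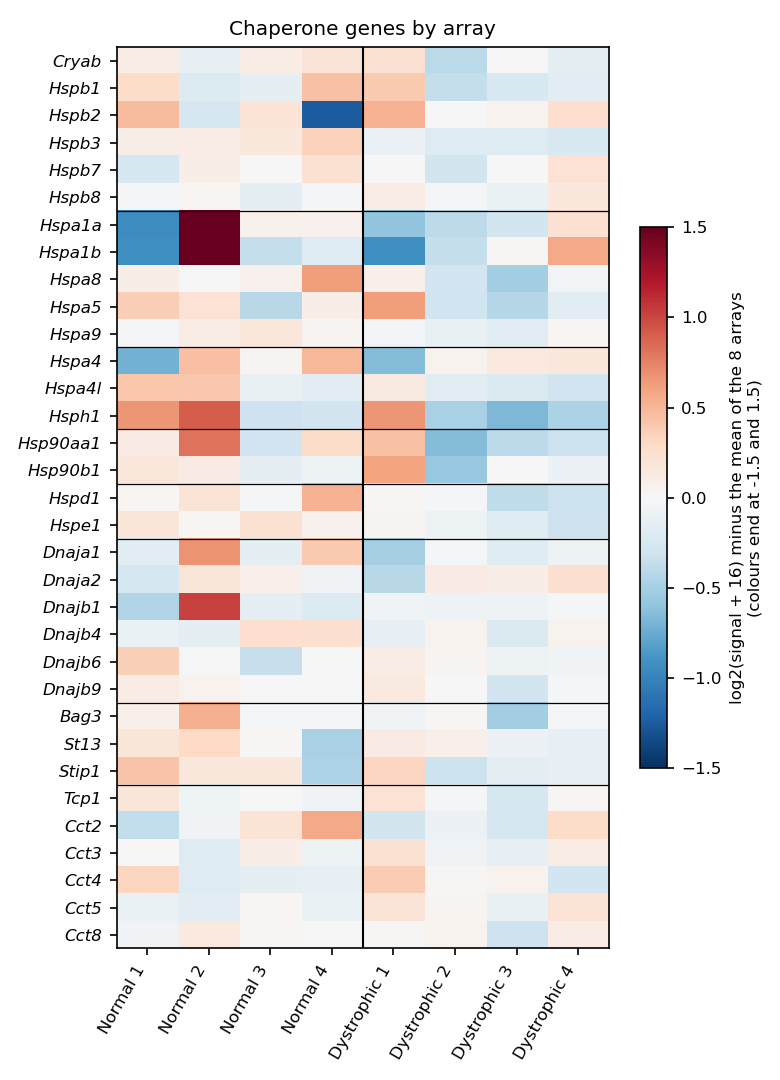
Level of each tested chaperone gene in each array, as log2(signal + 16) minus the mean of the 8 arrays, normal arrays left of the black line and dystrophic arrays right of it. Colours end at -1.5 and 1.5. The darkest red cells are Hspa1a, Hspa1b and Dnajb1 in normal replicate 2, and dystrophic replicate 3 holds mostly blue cells.

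The HSP70 genes were all below 0 (5 of 5, median -0.34), with 0 called. Hspa1a and Hspa1b encode the stress-inducible HSP70 and are near-identical copies, so probes for either can read both, and their values are given as uncertain between the genes. Hspa1a signals were 211, 1547, 438 and 441 in normal arrays and 272, 315, 343 and 496 in dystrophic arrays. The brightest Hspa1b probe set read 367, 3208, 548 and 618 in normal arrays and 368, 552, 715 and 1062 in dystrophic arrays. On both, normal replicate 2 stood far above the other 7 arrays. Of the dystrophic arrays, replicate 4 on Hspa1a and replicates 3 and 4 on Hspa1b lay above the remaining normal arrays, and the others lay among them. The remaining Hspa1b probe sets showed the same, at 1850 and 2206 in normal replicate 2 against 174 to 586 in the other arrays.

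The differences of Hspa1a and Hspa1b rested on that array. Hspa1a gave -0.52 (SE 0.454, adjusted p = 0.781) with it and 0.01 without it. Hspa1b gave -0.34 (SE 0.553, adjusted p = 0.901) with it and 0.32 without it. Against the mean of the other 3 normal arrays, normal replicate 2 was higher on the log2 scale by 2.87, 2.66 and 2.64 on the Hspa1b probe sets, which were the 2nd, 4th and 5th highest of 13575 probe sets in that array. Hspa1a was higher by 2.11, at rank 13. At the other end of the normal group, replicate 1 differed from the mean of its companions by -1.60 on Hspa1a and by -2.07 to -1.45 on the Hspa1b probe sets.

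The promoters of Hspa1a and Hspa1b are shown because their probe sets moved together across the arrays and because their start regions are almost the same. Probes that read both genes would also move together, so the signals do not show that each gene did. RefSeq windows (GRCm38.p6, 250 bases before to 50 after the gene start, 300 in all) were found for 28 of the 37 listed genes. The windows of Hspa1a and Hspa1b agree at 296 of 300 positions (98.7%). The stretches below run from position -140 to -1 on the minus strand, at chr17:34972157-34972296 for Hspa1a and chr17:34959239-34959378 for Hspa1b, and capitals mark a heat shock element pair, which lies at -104 to -97.
Hspa1a: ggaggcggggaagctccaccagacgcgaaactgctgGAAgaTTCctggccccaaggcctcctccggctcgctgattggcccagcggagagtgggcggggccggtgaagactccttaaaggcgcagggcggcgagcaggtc
Hspa1b: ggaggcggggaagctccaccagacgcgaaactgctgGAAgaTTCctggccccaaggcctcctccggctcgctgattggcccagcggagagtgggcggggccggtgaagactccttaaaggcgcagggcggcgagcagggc

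That pair was searched as GAANNTTC or TTCNNGAA, the facing GAA units that heat shock factor recognises with 2 bases between them. Each form is its own reverse complement, so both strands were covered, and neighbouring matches may overlap. A match stood in 4946 of 32851 windows (15.1%) and in 17 of the 38 windows of the chaperone genes. These 17 windows belong to 15 of the 28 genes, among them Hspb1 (first at -117 to -110), Dnaja1, Bag3, Hsph1 and Hspb3 (-224 to -217). A gene can have several windows, and these can overlap. Both Dnajb1 windows held none. Such a match is a description of letters and not a measured binding site.

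The inducible J protein gene Dnajb1 (HSP40), whose protein starts the HSP70 cycle in stressed cells, followed the inducible HSP70 genes in normal replicate 2. Its signals were 273, 792, 342 and 328 in normal arrays and 364, 360.1, 358 and 375 in dystrophic arrays. Normal replicate 2 was alone again, while the 4 dystrophic arrays lay within 358 to 375 (434 ± 241 against 364 ± 7.41). The difference was -0.12 (SE 0.267, adjusted p = 0.939) with that array and 0.21 without it. The other Dnajb1 probe set spread more widely in dystrophic arrays, from 227 to 351, and gave -0.47 (SE 0.266, adjusted p = 0.614). On the log2 scale normal replicate 2 lay 1.30 and 1.17 above the other normal arrays on the 2 Dnajb1 probe sets, at ranks 45 and 71 of 13575. Dnaja1, another J protein of the cytosol that partners HSP70, read 901, 1623, 921 and 1329 in normal arrays and 713, 997, 886 and 960.1 in dystrophic arrays. Normal replicates 2 and 4 were the highest and dystrophic replicate 1 the lowest, with a difference of -0.39 (SE 0.198, adjusted p = 0.563, exact permutation p = 0.229).

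The 8 immediate early genes, among the first to be transcribed after a stimulus, summed to 11655 in normal replicate 2, within the 9168 to 21128 of the other normal arrays. Its liver marker sum of 3568 was above the other normal arrays and within the dystrophic range. Whether either bears on its HSP70 signals was not tested.

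**Figure D3:**
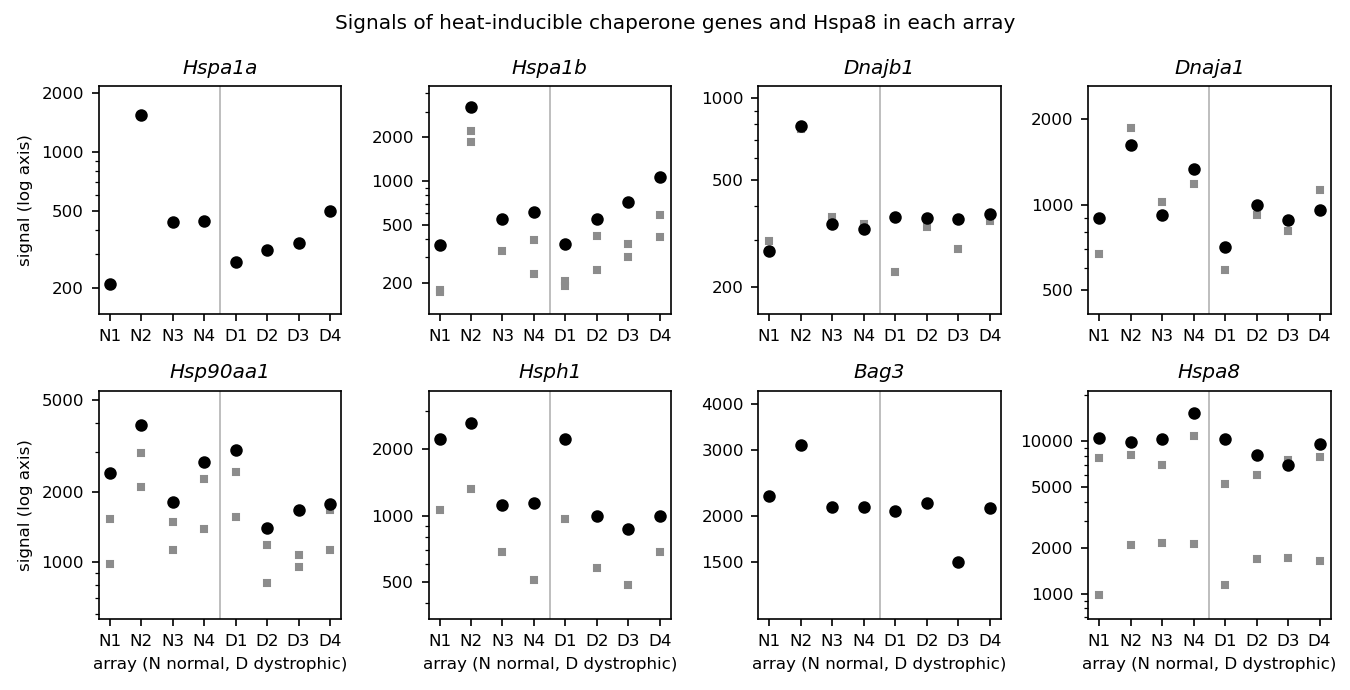
Signals (log axis) of 7 heat-inducible chaperone genes and of Hspa8 in each array, N1 to N4 normal and D1 to D4 dystrophic. Black circles are the brightest probe set of the gene and grey squares its other tested probe sets. N2 is the highest array for Hspa1a, Hspa1b, Dnajb1, Dnaja1, Hsp90aa1, Hsph1 and Bag3, and D1 is high for Hsph1 and Hsp90aa1. Hspb1, also named above as a target of heat shock factor 1, is not drawn, and N2 was its lowest normal array (12195).

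Hspa8 (HSC70), the constitutive HSP70 of the cytosol that also uncoats clathrin vesicles, was the brightest gene of its family. Signals were 10424, 9795, 10318 and 15204 in normal arrays and 10338, 8087, 6903 and 9541 in dystrophic arrays. Of the dystrophic arrays only replicate 1 reached the normal range, and normal replicate 4 lay above all others (11435 ± 2528 against 8717 ± 1527). The difference was -0.38 (SE 0.174, adjusted p = 0.509, exact permutation p = 0.0857), and -0.24 without normal replicate 4. Between the replicate 1 arrays it was -0.01, between the replicate 3 arrays -0.58. A second bright probe set gave -0.34 and a dimmer one -0.19.

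Hspa9 (mortalin), the HSP70 of the mitochondrial matrix, read 3919.8, 4345, 4520.5 and 4111 in normal arrays and 3891, 3716, 3557 and 4104 in dystrophic arrays. Dystrophic replicates 1, 2 and 3 lay below all normal arrays, replicate 1 narrowly, and the difference was -0.15 (SE 0.111, adjusted p = 0.739). Hspa5 (BiP), the HSP70 of the endoplasmic reticulum, read 6198, 5592, 3594 and 5158 in normal arrays and 7405, 3908, 3558 and 4285 in dystrophic arrays. The highest array of each group was replicate 1, and the groups overlapped over their whole range, with a difference of -0.14 (SE 0.234, adjusted p = 0.908).

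HSP110 proteins are large relatives of HSP70 that release its nucleotide. Their 3 genes lay below 0, with a median of -0.28 and 0 called. Hsph1 (HSP105), the heat-inducible one, read 2218, 2635, 1118 and 1140.3 in normal arrays and 2218, 994, 868 and 997 in dystrophic arrays. Replicates 1 and 2 of the normal group and replicate 1 of the dystrophic group were at least 2218, and every other array was at most 1140.3. The difference was -0.49 (SE 0.336, adjusted p = 0.701). It was 0.00 between the replicate 1 arrays and -0.79 between replicates 2 and 4, and dystrophic replicate 1 exceeded the other dystrophic arrays by 1.21 on the log2 scale, at rank 27 of 13575. Normal and dystrophic replicate 1 also had the highest spike-in signals and 18S ribosomal signals of 1398 and 899, against 76.3 to 228 in the other arrays, and their part in this pattern was not tested.

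Hspa4 (APG-2), the constitutive HSP110, had probe sets that read differently. The brightest gave 582, 1316, 986 and 1355 in normal arrays and 606, 998, 1063 and 1078 in dystrophic arrays. Here the groups overlapped and replicate 1 was the lowest in both, with a difference of -0.14 (SE 0.268, adjusted p = 0.920). A dimmer probe set gave 681, 627, 598 and 455 in normal arrays and 313, 462, 318 and 251 in dystrophic arrays. Only dystrophic replicate 2 reached the normal range there, and the difference of -0.80 (SE 0.192, adjusted p = 0.125, exact permutation p = 0.0571) had the smallest limma p of all 70 chaperone probe sets. The third Hspa4 probe set gave -0.20 (SE 0.323). Hspa4l, a relative known from testis and osmotic stress, ranged from 376 to 568 in normal and from 342 to 466 in dystrophic arrays, with a difference of -0.28 (SE 0.176, adjusted p = 0.675).

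HSP90 dimers mature signalling kinases, steroid receptors and, in muscle, myosin heads. Hsp90aa1, the inducible cytosolic HSP90, read 2428, 3925, 1825 and 2711 in normal arrays and 3038, 1409.8, 1688 and 1775 in dystrophic arrays. All dystrophic arrays but replicate 1 lay below all normal arrays, and normal replicate 2 was the highest. The difference was -0.47 (SE 0.259, adjusted p = 0.607, exact permutation p = 0.229). It was 0.32 between the replicate 1 arrays, -0.11 between the replicate 3 arrays and -1.04 between replicates 2 and 4, so its sign differed between arrays of different spike-in level. Its other probe sets gave -0.38 and -0.31.

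Hsp90b1 (GRP94), the HSP90 of the endoplasmic reticulum, read 2426, 2349, 1951 and 2055 in normal arrays and 3256, 1457, 2149.5 and 2038 in dystrophic arrays. As with Hspa5, dystrophic replicate 1 was the highest array. Dystrophic replicate 2 lay well below the normal arrays, and the difference was -0.03 (SE 0.207, adjusted p = 0.981). The dimmer Hsp90b1 probe set gave -0.23 (SE 0.123, adjusted p = 0.583), at 1427 to 1688 in normal and 1159 to 1447 in dystrophic arrays. There dystrophic replicate 1, at 1328, lay below all normal arrays, so its high place and the small difference depend on the probe set. Hspa5 and Hsp90b1 are classic targets of the unfolded protein response of the endoplasmic reticulum, and their promoters are shown because they were the only windows of the 28 genes with that response's element, CCAAT and CCACG with 9 bases between them on either strand. The element stood in 39 of 32851 windows (0.119%). Capitals mark it in the stretches below, both ending at position -1, at chr2:34771890-34772089 on the plus strand for Hspa5 (element at -65 to -47) and chr10:86705445-86705684 on the minus strand for Hsp90b1 (first element at -212 to -194, the other read on the opposite strand).
Hspa5: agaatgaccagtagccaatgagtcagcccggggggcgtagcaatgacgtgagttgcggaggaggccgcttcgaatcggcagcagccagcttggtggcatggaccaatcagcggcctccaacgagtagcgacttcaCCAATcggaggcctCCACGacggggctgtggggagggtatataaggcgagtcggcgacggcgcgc
Hsp90b1: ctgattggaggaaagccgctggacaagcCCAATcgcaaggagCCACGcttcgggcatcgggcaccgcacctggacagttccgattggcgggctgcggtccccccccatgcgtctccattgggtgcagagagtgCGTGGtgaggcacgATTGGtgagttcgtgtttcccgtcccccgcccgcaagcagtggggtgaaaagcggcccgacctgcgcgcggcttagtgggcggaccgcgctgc

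HSP60 and its lid HSP10 form the folding chamber of mitochondria. Both genes lay below 0, and neither was called. Hspd1 (HSP60) read 5071, 5703, 4853 and 7123 in normal arrays and 5023, 4838, 3786 and 3949.6 in dystrophic arrays. Dystrophic replicates 3 and 4 were lowest, dystrophic replicate 2 lay just under the lowest normal array and dystrophic replicate 1 within the normal range (5687 ± 1022 against 4399 ± 622). The difference was -0.36 (SE 0.154, adjusted p = 0.470, exact permutation p = 0.0571), and -0.01 between the replicate 1 arrays. Hspe1 (HSP10) read 4764, 4284, 4928 and 4387 in normal arrays and 4303, 3975, 3704 and 3381 in dystrophic arrays. Dystrophic replicate 1 exceeded the lowest normal array narrowly and the other dystrophic arrays lay below it (4591 ± 305 against 3841 ± 392). The difference was -0.26 (SE 0.119, adjusted p = 0.516, exact permutation p = 0.0571). On the dimmer Hspe1 probe set, at 1105 to 1379 in normal and 974 to 1071 in dystrophic arrays, the groups did not overlap, with a difference of -0.23 (SE 0.119, adjusted p = 0.563).

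Hspd1 and Hspe1 lie head to head: one of the 2 RefSeq windows of Hspd1, on the minus strand of chromosome 1, shares 285 of its bases with the window of Hspe1 on the plus strand. That shared stretch is shown because it serves both genes. It runs from position -140 to -1 of Hspe1 at chr1:55088008-55088147, and capitals mark heat shock units, 3 overlapping pairs of which the first lies at -89 to -82. At least 3 alternating units in a row stood in 198 of 32851 windows (0.603%) and in 6 of the 38 windows of the chaperone genes. Those 6, some of which overlap, belong to 4 of the 28 genes: Hspd1, Hspe1, Dnajb6 and Hsph1.
Hspe1: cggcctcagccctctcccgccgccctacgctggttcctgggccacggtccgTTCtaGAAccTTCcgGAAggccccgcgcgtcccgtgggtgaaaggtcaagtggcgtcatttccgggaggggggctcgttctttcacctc

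Of the remaining J proteins none was called, and the family of 6 had a median of -0.10 with 4 below 0. Dnajb4, which is abundant in muscle, was the brightest, at 2616, 2539, 3346 and 3315 in normal arrays and 2573, 2906, 2405 and 2900.0 in dystrophic arrays. Normal replicates 3 and 4 were highest and the other 6 arrays overlapped, with a difference of -0.12 (SE 0.137, adjusted p = 0.836). Dnajb6, in which mutations cause a limb-girdle muscular dystrophy, ranged from 1342 to 2198 in normal and from 1621 to 1859 in dystrophic arrays, with a difference of 0.01 (SE 0.150). Its dimmer probe sets gave 0.43 and 0.26, and none was called. Dnaja2 gave 0.02 (SE 0.164) on its brightest probe set and -0.11 on the other. Dnajb9 (ERdj4), the J protein that works with BiP, read 2105 to 2274 in normal and 1731 to 2329.8 in dystrophic arrays, with a difference of -0.08 (SE 0.122).

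Of the co-chaperones, Bag3, the nucleotide exchange factor of chaperone-assisted autophagy in muscle, was the brightest, with 2253, 3106, 2109 and 2104 in normal arrays and 2059, 2163, 1499 and 2089.9 in dystrophic arrays. Normal replicate 2 stood above and dystrophic replicate 3 below a narrow band that held the other 6 arrays of both groups. The difference was -0.29 (SE 0.166, adjusted p = 0.625). Stip1 (HOP), which bridges HSP70 and HSP90, ranged from 657 to 1238 in normal and from 726 to 1148 in dystrophic arrays, with a difference of -0.14 (SE 0.201). St13 (HIP), which stabilises HSP70 with bound ADP, ranged from 919.9 to 1589 and from 1184 to 1414, with a difference of -0.00 (SE 0.168).

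The CCT chaperonin, the ring that folds actin and tubulin, was evenly divided on the brightest probe sets: 3 of its 6 genes lay below 0 and 3 above, with a median of 0.02 and 0 called. Tcp1 (CCT1) was its brightest gene, at 4835, 4073, 4269 and 4125 in normal arrays and 4946, 4210.2, 3546 and 4305 in dystrophic arrays. The groups coincided apart from a low dystrophic replicate 3, with a difference of -0.03 (SE 0.130, adjusted p = 0.964). The genes farthest from 0 were Cct5 at 0.17 (SE 0.120, adjusted p = 0.720) and Cct2 at -0.17 (SE 0.199, adjusted p = 0.846), and Cct3, Cct4 and Cct8 gave 0.08, 0.08 and -0.07. The direction of Cct3 and Cct4 depends on the probe set: the other tested ones gave -0.49 to -0.00 for Cct3 and -0.25 to 0.15 for Cct4. Cct8 ranged from 1089 to 1248 in normal and from 906 to 1225 in dystrophic arrays. The heat shock factor gene Hsf2 was too dim to test, with signals of 9.07 to 42.7 in normal and 2.15 to 48.0 in dystrophic arrays.

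**Figure D4:**
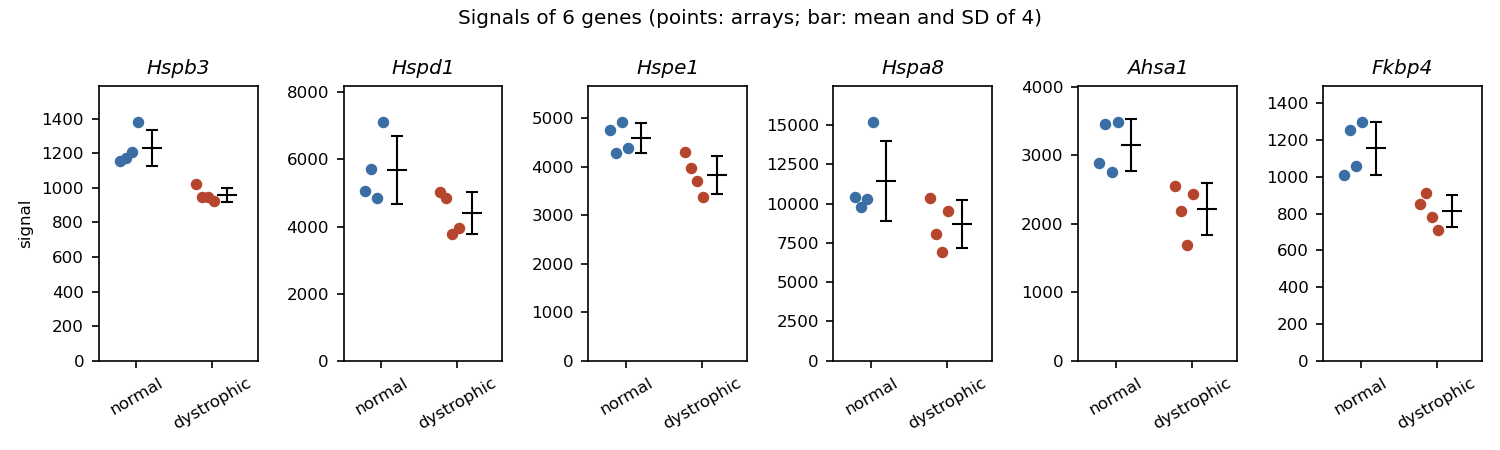
Signals (linear axis from 0) of 6 genes in 4 normal (blue) and 4 dystrophic (red) arrays. Hspb3, Hspd1, Hspe1 and Hspa8 had the lowest limma p among the brightest probe sets of the chaperone genes. Ahsa1 and Fkbp4 are HSP90 co-chaperone genes. Points are arrays and bars the mean and SD of 4 arrays; groups are separate for Hspb3, Ahsa1 and Fkbp4, and none of the 6 passed the adjusted threshold.

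Across the 33 genes, some arrays were repeatedly at an end of their group. Dystrophic replicate 1 was the highest dystrophic array for 19 genes (57.6%, against 32.4% of all tested probe sets). Dystrophic replicate 3 was the lowest for 15 genes (45.5% against 27.5%) and the highest for 0 (0.0% against 23.4%). Dystrophic replicate 4 was the highest for 11 genes (33.3% against 20.6%). Normal replicate 2 was the highest normal array for 11 genes (33.3% against 22.5%) but also the lowest for 9 (27.3% against 18.9%). Dystrophic replicate 3 was also the array with the liver marker sum of 55339, and the part of that in its low chaperone signals was not tested.

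Other genes of the chaperone network showed 0 calls in each of 6 lists, where 0.494% of all probe sets were called. At that share, 0 calls among so few genes does not set these lists apart. Of 20 other co-chaperones of HSP70 and HSP90, 9 lay below 0 (median 0.03), with 3 lower and 1 higher at an unadjusted limma p under 0.05, where the background over all probe sets was 4.13% lower and 5.6% higher. The brightest, Cdc37, which hands kinases to HSP90, and Hsbp1, which binds heat shock factor, gave 0.17 and 0.14. The HSP90 co-chaperones Ahsa1 and Fkbp4, like Fkbp5 and Bag2 below, were singled out after their values were seen. Ahsa1, the activator of the HSP90 ATPase, read 2888, 3464, 2765 and 3491 in normal arrays and 2557, 2184, 1691 and 2438 in dystrophic arrays. Fkbp4 (FKBP52), the immunophilin of steroid receptor complexes, read 1007, 1254, 1059 and 1299 in normal arrays and 851, 912, 779 and 708 in dystrophic arrays. On both genes every dystrophic array lay below every normal array. These were 2 of the 20 genes, against 2.53% of all probe sets in that direction. The differences were -0.51 (SE 0.153, adjusted p = 0.234) for Ahsa1 and -0.50 (SE 0.137, adjusted p = 0.185) for Fkbp4, each with an exact permutation p of 0.0286. Fkbp5 (FKBP51), a glucocorticoid target whose protein restrains steroid receptors, had the opposite sign, with 842.7 to 2360 in normal and 1711 to 2775 in dystrophic arrays and a difference of 0.84 (SE 0.289, adjusted p = 0.334). That sign did not hold between the replicate 1 arrays (-0.46), while the replicate 3 arrays gave 1.58 and replicates 2 and 4 gave 1.12. Bag2, an exchange factor that inhibits the ubiquitin ligase CHIP, gave -0.40 (SE 0.169, adjusted p = 0.470).

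Among 20 other J proteins 13 lay below 0 (median -0.05), and the brightest, Dnajc8 and Dnajc15, gave 0.10 and -0.03. Dnajc7, which binds both HSP70 and HSP90 and is named for its values, was separate between groups, at 650.1 to 1329 in normal and 1381 to 1597 in dystrophic arrays (0.49, SE 0.197, adjusted p = 0.449). Groups did not overlap in that direction for 1 of the 20, against 3.87% of all probe sets. The Dnajc7 difference was 1.12 between the replicate 1 arrays, 0.05 between the replicate 3 arrays and 0.40 between replicates 2 and 4. Of 5 further tested chaperone genes, listed as HSP70, HSP110 and small heat shock proteins together with the mitochondrial HSP90 gene Trap1, 3 lay below 0 (median -0.00, the value of Trap1). The brightest were Trap1 and the endoplasmic HSP110 gene Hyou1, which gave -0.13. Of 8 other CCT and prefoldin subunits 5 lay below 0 (median -0.07), with Cct6a at -0.07 and Pfdn5 at 0.49 (SE 0.221, adjusted p = 0.509, exact permutation p = 0.171) as the brightest. Vbp1, a prefoldin subunit named for its values, was lower in every dystrophic array, at 1481 to 1880.1 against 1083 to 1321 (-0.39, SE 0.128, adjusted p = 0.301). Groups did not overlap in that direction for 1 of these 8 genes, against 2.53% of all probe sets.

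The 22 genes of endoplasmic reticulum folding and the unfolded protein response had a median of 0.08 with 6 below 0. Their brightest members, the calcium-binding chaperone gene Calr and the disulfide isomerase gene P4hb, gave -0.15 (SE 0.150) and 0.15 (SE 0.141). Ppib (cyclophilin B), a proline isomerase for collagen, named for its values, was higher in every dystrophic array, at 1079 to 1837.5 in normal and 1912.5 to 2389 in dystrophic arrays (0.54, SE 0.172, adjusted p = 0.283). Groups did not overlap in that direction for 1 of the 22, against 3.87% of all probe sets. Beside Ppib stand the fibroblast marker sums given above, whose part was not tested. Of 11 genes of chaperone-assisted autophagy and its Z-disc clients 6 lay below 0 (median -0.07), with the brightest, Tpm1 and Des, at -0.23 and -0.07. Flnc (filamin C), the client of BAG3 and likewise named for its values, ranged from 1162 to 1848 in normal and from 1787 to 2661 in dystrophic arrays, a difference of 0.60 (SE 0.172, adjusted p = 0.209, exact permutation p = 0.0571). Only dystrophic replicate 3 reached the normal range of Flnc.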

How the data were processed

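RNA from 8 diaphragm pools, 4 normal and 4 dystrophic, was measured on Affymetrix arrays, 1 array a pool. The authors deposited linear signal intensities for 22690 probe sets, 64 of them controls, made with MAS5 per the submitters' processing notes. MAS5 subtracts mismatch probes and scales each array, which leaves dim values noisy. No MAS5 version or genome build is given in the sources used here. Normal replicate 4 had a 2% trimmed mean of 400.2, against 500.2 on the other 7, so all arrays were rescaled to 487.7, as fixed for differences over 10%. The pools came from different mice.

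Probe sets were named from the platform annotation (20380 with 1 symbol, 691 with several, 1555 with none), updated by Entrez identifier in a RefSeq table (20364 matched). Controls and the lowest 40% by mean log2(signal + 16) were left out. limma 3.58.1 in R 4.3.3 (lmFit, eBayes with intensity trend) compared the groups over 13575 probe sets, with Benjamini-Hochberg adjustment and a threshold of 0.05. A gene is represented by its brightest probe set. Fits were tested on simulated data.

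The genes and the related lists were chosen with earlier results of these data known, so no list was tested. Of the listed chaperone genes, values in all arrays are given for those with an unadjusted limma p under 0.05, for groups that did not overlap and for the brightest of each family. They are also given for further genes that no fixed rule chose, such as Hspb2, Hspa1a and Hspa5. The others are given by range or difference. In the related lists only Ahsa1 and Fkbp4 are given in all arrays. Of each related list the 2 brightest are named, and further names were chosen after their values were seen. Alternatives were other offsets, filters, scalings and variance models, blocks, averaged probe sets and arrays left out. Promoters came from a RefSeq table (GRCm38.p6). Its entries were not found for Cct4, Cryab, Hsf1, Hsp90aa1, Hsp90ab1, Hspa8, Hspa9, Hspb2 and St13.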

Additional observations from a re-analysis of the deposited data

Results flagged for a closer look

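In 18 of 140 groups of 4 arrays (12.9%) over the chaperone probe sets, the highest or lowest array stood apart from its companions by Dixon's criterion. It flags about 1 in 20 groups if values are normally distributed, but was applied to linear signals. The share over all probe sets was not computed, so the count does not set chaperone genes apart from others. Probe sets of a gene are not independent.

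Normal replicate 2 stood above the other normal arrays on Hspa1b at 3208 and 1850 on separate probe sets (the others at most 618 and 330), on Dnajb1 at 792 and 770.4 (the others at most 342 and 362), on Bag3 at 3106 and on a dimmer Hspa4l probe set at 531. Normal replicate 4 was high on Hspa8 at 15204 and low on a dimmer Dnajb6 probe set at 663. Normal replicate 1 was high on Cct4 at 3523 and low on a dimmer Hspa8 probe set at 972.

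Dystrophic replicate 1 was high on Hsph1 at 2218 (the others 868 to 997) and on a second Cct3 probe set at 4919, and low on Hspa4 at 606, on that dimmer Hspa8 probe set at 1145 and on a dimmer Cct4 probe set at 391. Dystrophic replicate 3 was low on Bag3 at 1499. Dystrophic replicate 4 was high on a dimmer Cct3 probe set at 817 and low on the dimmer Dnaja2 probe set at 579.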

How the results depend on the processing

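Over 21 alternatives (8 with 1 array left out and 13 of other kinds), 0 chaperone genes were called. The median over the genes ranged from -0.16 with the mean of probe sets to -0.06 with values as deposited, where the median of all probe sets moved from -0.01 to 0.06. Of 693 gene values, 651 kept their direction, as did 20 of 33 genes throughout, and 42 reversed. Reversed values were Dnajb6 at -0.0075 under 75th percentile scaling; Hspb7 at 0.13, Dnaja2 at -0.042 and Cct4 at -0.032 with the mean of probe sets; Hspb7 at 0.016 and St13 at 0.0010 after quantile normalization. With values as deposited they were Hspb7 at 0.044, Hsp90b1 at 0.046, St13 at 0.078, Tcp1 at 0.049 and Cct8 at 0.014, and without normal replicate 4 and dystrophic replicate 3 Hspb7 at 0.028, Dnaja2 at -0.019, Tcp1 at 0.031, Cct2 at 0.045 and Cct8 at 0.020. With each array left out in turn, ranges that crossed 0 were -0.40 to 0.054 for Hspa4, -0.11 to 0.13 for Dnajb6, -0.035 to 0.20 for Cct4, -0.13 to 0.050 for Hspb7, -0.23 to 0.15 for Hsp90b1, -0.060 to 0.16 for Dnaja2, -0.16 to 0.097 for St13, -0.11 to 0.052 for Tcp1, -0.12 to 0.028 for Cct8, -0.92 to 0.012 for Hspa1a, -0.70 to 0.32 for Hspa1b and -0.29 to 0.21 for Dnajb1. Hspa1a, Hspa1b and Dnajb1 crossed without normal replicate 2 only; the cause of the other reversals was not tested. Hspb3 kept an adjusted p of 0.209 to 0.696 over the other alternatives and 0.291 to 0.571 with arrays left out. Same-numbered arrays of the groups correlated at 0.484, -0.0455, 0.145 and 0.133 in their deviations, not all over 0.1, so the numbers were not taken to pair the arrays, although replicates 1 and 3 share a spike-in level across groups. A replicate block gave 105 calls over all probe sets against 67, 0 among the chaperone genes and an unchanged median of -0.14. All probe sets gave 114 calls with the spike-in level as a block, 127 with array weights, 25 to 61 with 1 array left out and 31 without normal replicate 4 and dystrophic replicate 3. MAS5 signals near background are noisy, which limits dim genes such as Hsf2.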
